A study of Canis lupus familiaris with 25 samples.

Results

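The genes described here are ESM1 and 9 genes that mark blood vessel endothelium: CLDN5, VWF, PECAM1, CDH5, TEK, TIE1, PLVAP, EMCN and EGFL7. They are 10 of the 15115 genes that the array names, and 21 of its 42924 probe sets name exactly 1 of them. They were chosen on measured values of the same arrays, ESM1 as a gene higher in carcinoma and the others as endothelial genes to set against it. Their tumour and gland levels are therefore given as a description, without a test. Relations among them within a tissue were not used in the choice and are tested. These tests were themselves chosen with earlier results of the same data known.

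Endothelial cells line every blood vessel and hold together through junctions built on VE-cadherin (CDH5), claudin-5 (CLDN5) and PECAM-1. They secrete von Willebrand factor (VWF), carry the angiopoietin receptor Tie2 (TEK) and its partner Tie1, and form capillary beds that supply the mammary epithelium and fat. ESM1, also called endocan, is a secreted proteoglycan made by endothelial cells at the growing tips of vessels, and vascular endothelial growth factor A (VEGFA) induces it.

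Expression was measured on 25 Affymetrix canine arrays from 14 dogs aged 9 to 16 years. The 13 tumours were simple mammary carcinomas of dogs that had lymph node metastases when the tumour was removed, and the 12 glands were mammary tissue without neoplasia. Both tissues came from 11 dogs, whereas dogs 1 and 9 gave a tumour alone and dog 8 a gland alone. No group received a treatment according to the labels, and 11 of the 13 tumours were labelled positive for HER-2. Specimens had been macrodissected for a high share of epithelium, so the vessel genes were read from the stroma that remained. In such bulk samples fewer endothelial cells and less RNA per cell cannot be told apart. Spontaneous tumours of pet dogs of different breeds were used, and the precision is limited by their number.

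Values are the deposited log2 levels, and those below log2 4 lie near the lower end of the scale, where they carry little order. Array medians lay between log2 3.55 and 3.76. The glands of dogs 7, 10, 11, 12, 13 and 14 carried skeletal muscle RNA, with a mean over 19 muscle genes of up to log2 10.72, against at most log2 4.89 in any tumour. The gland of dog 8 stood apart in the vessel genes themselves: of the 12 glands it was the lowest in CLDN5, VWF, PECAM1, CDH5, TIE1, PLVAP, EMCN and EGFL7. The main paired differences, the vessel list counts and the relations among the vessel genes are given with and without these arrays. Gland relations with the means of other cell lists are given over all 12 glands.

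ESM1 was higher in the tumour than in the gland of the same dog in 11 of 11 dogs. Its level ran from log2 3.84 to 10.78 in the 13 tumours, with a median of 7.07. In the 12 glands it ran from log2 2.31 to 4.91, with a median of 2.72. Thus 10 of 12 glands were below log2 4, and 11 of 13 tumours exceeded the highest gland. The overlap was limited to the tumours of dogs 11 and 12 and the glands of dogs 4 and 5. The mean paired difference was 3.97 ± 1.80 on the log2 scale (SD, n = 11), a ratio of 15.7 that is uncertain because most glands lay near the lower end. Dog 12 showed the smallest difference, 1.01, and dog 14 the largest, 6.85.

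Among the junction genes, CLDN5, a tight junction protein of endothelium, was the one with the largest difference. CLDN5 ran from log2 3.18 to 7.28 in tumours (median 5.07) and from 3.41 to 10.44 in glands (median 8.84). All 13 tumours lay below the gland median, and without the gland of dog 8 the lowest gland was at log2 6.82. The tumour was lower in 11 of 11 dogs, by -3.98 ± 1.45 (SD, n = 11) on the log2 scale, from -6.43 in dog 12 to -1.54 in dog 4. As 5 tumours were below log2 4, the ratio of 15.8 is uncertain.

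PECAM1, an adhesion receptor shared by endothelium, platelets and leukocytes, ran from log2 8.21 to 11.80 in tumours (median 9.94). Its glands ran from log2 8.98 to 13.21 (median 11.82), and the highest 6 of them exceeded all tumours. The paired difference was -2.14 ± 1.02 (SD, n = 11), a ratio of 4.40, with the tumour lower in 11 of 11 dogs. CDH5, the cadherin of endothelial adherens junctions, ran from log2 2.70 to 5.78 in tumours (median 3.00) and from 2.95 to 7.33 in glands (median 5.29). The tumour was again lower in 11 of 11 dogs, by -1.68 ± 1.30 (SD, n = 11). Because 9 of 13 tumours and 3 of 12 glands were below log2 4, the size of this difference is uncertain.

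For the receptor TEK, which binds angiopoietins, 11 of 13 tumours and 5 of 12 glands were below log2 4. The tumours ran from log2 3.16 to 6.49 (median 3.51) and the glands from 3.48 to 5.28 (median 4.20). The highest TEK level of all 25 arrays was in the unpaired tumour of dog 9, whereas the 11 paired tumours stayed at or below log2 3.67. Over the pairs TEK was lower by -0.96 ± 0.55 (SD, n = 11), in 11 of 11 dogs. TIE1, an orphan receptor that modulates Tie2, ran from log2 3.80 to 6.15 in tumours (median 4.92) and from 5.06 to 7.78 in glands (median 5.99). It was lower in 10 of 11 dogs, by -1.31 ± 0.90 (SD, n = 11), and dog 14 showed a difference of 0.01.

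Both secreted vessel proteins were lower in all paired tumours. VWF, the clotting factor stored in endothelial granules, ran from log2 6.77 to 11.01 in tumours (median 9.12) and from 7.38 to 12.95 in glands (median 11.04). Its paired difference was -2.36 ± 1.02 (SD, n = 11), a ratio of 5.14, from -4.12 in dog 12 to -1.33 in dog 14. EGFL7, an extracellular protein of endothelium that guides vessel tube formation, ran from log2 6.56 to 8.39 in tumours (median 7.31) and from 7.35 to 10.49 in glands (median 9.13). Its difference was -1.61 ± 0.63 (SD, n = 11), the smallest SD after TEK, and all 13 tumours lay below the gland median.

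The remaining pair of genes did not share this direction in every dog. EMCN, a sialomucin on the surface of capillary and venous endothelium, ran from log2 7.96 to 12.77 in tumours (median 9.64) and from 8.89 to 11.33 in glands (median 10.43). The tumours of dogs 5 and 14 exceeded all glands, at differences of 2.14 and 2.48, while 9 of 11 dogs had the lower value in the tumour. The mean difference of -0.54 ± 1.61 (SD, n = 11) was smaller than the spread between dogs. PLVAP, which forms the diaphragms of fenestrated capillaries, ran from log2 2.89 to 7.40 in tumours (median 5.21) and from 2.06 to 8.15 in glands (median 5.99). It was lower in 6 dogs and higher in 5, with a mean difference of -0.34 ± 1.58 (SD, n = 11), from -3.29 in dog 12 to 2.29 in dog 3. PLVAP was below log2 4 in 2 of 13 tumours and 4 of 12 glands, so the size of some differences is uncertain. The glands of dogs 3 and 14, which had higher values in the tumour, were at log2 2.09 and 2.07.

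**Figure D1:**
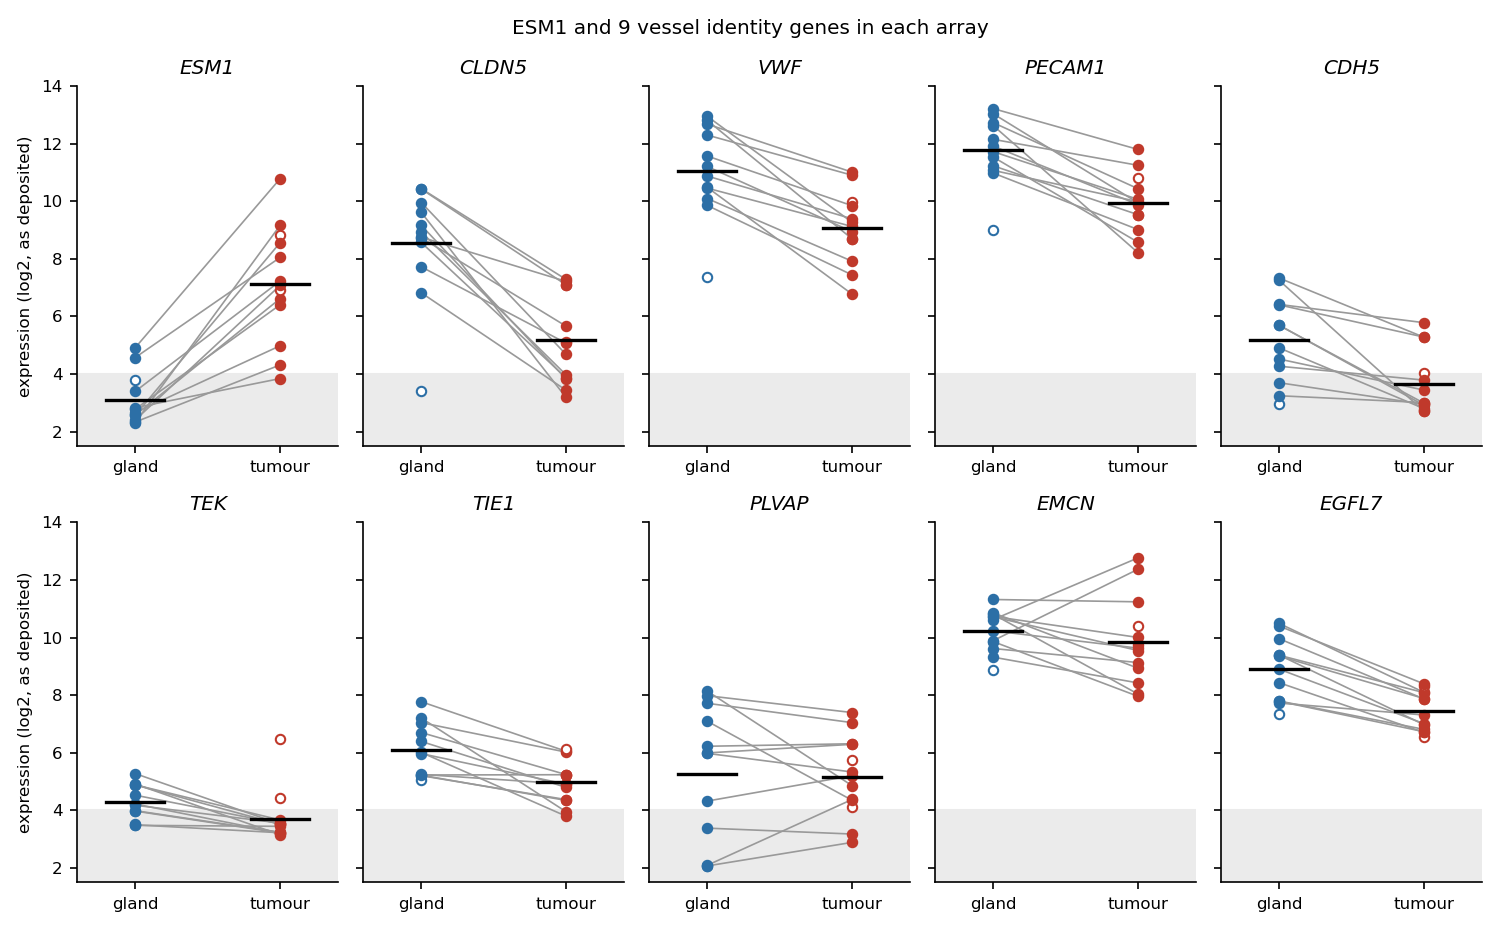
Expression (log2, as deposited) of each gene in each gland (blue) and tumour (red). Lines join the tissues of 1 dog, open circles are the unpaired arrays, black bars are means over all arrays of a tissue, and grey marks values below log2 4. The ESM1 lines run upward in 11 of 11 dogs, those of CLDN5, VWF, PECAM1, CDH5, TEK and EGFL7 run downward in 11 of 11, and PLVAP and EMCN are mixed.

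The dogs were not alike in how far the vessel genes differed. In dog 12 the median difference over the 9 vessel genes was -3.29, and this dog had the lowest differences of CLDN5, VWF, PECAM1, CDH5, TIE1, PLVAP and EMCN together with the smallest ESM1 difference. In dog 14 the median was -0.28, 6 of the 9 vessel genes were lower, and the ESM1 difference was the largest. In dogs 4, 7, 11, 12 and 13 all 9 vessel genes were lower in the tumour while ESM1 was higher.

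**Figure D2:**
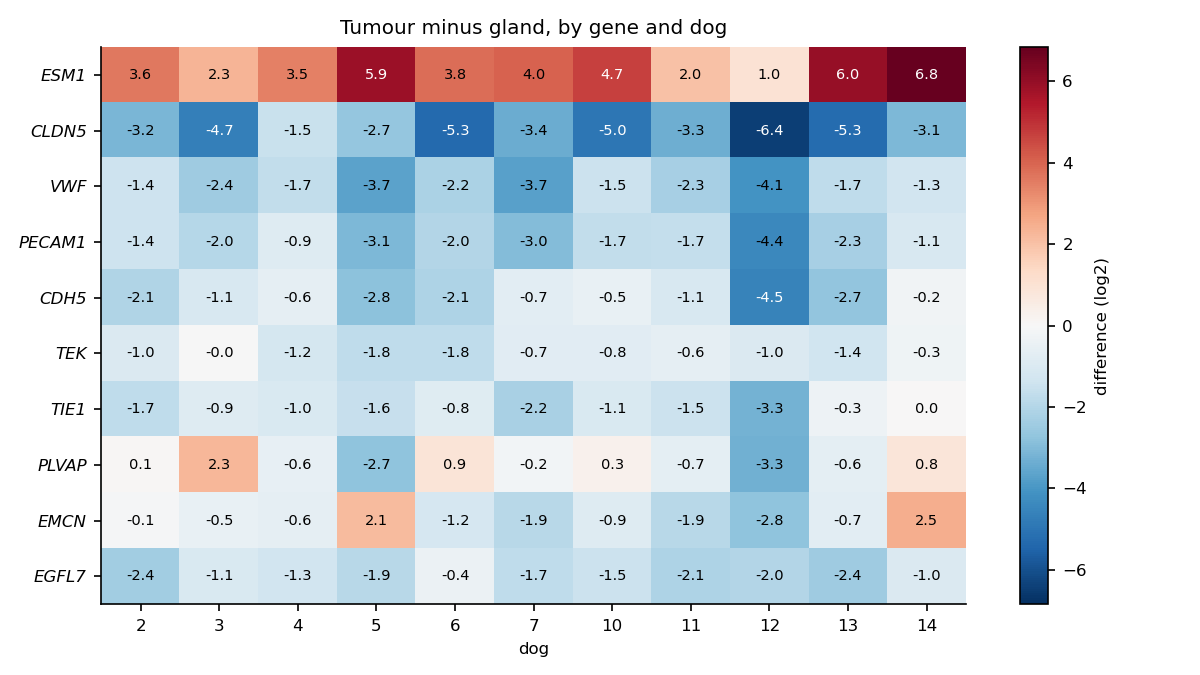
Tumour minus gland difference (log2) of each gene (rows) in each of the 11 paired dogs (columns), as colour and number. The ESM1 row is positive throughout, from 1.01 in dog 12 to 6.85 in dog 14, and the rows of CLDN5 to TEK are negative throughout.

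The unpaired arrays gave a different picture for the vessel genes. ESM1 was at log2 8.83 and 6.92 in the tumours of dogs 1 and 9 and at 3.78 in the gland of dog 8. CLDN5 was at log2 5.09 and 7.07 in these tumours and at 3.41 in this gland. For PECAM1 the tumours were at 9.50 and 10.80 and the gland at 8.98, and for VWF at 8.69 and 9.98 against 7.38. The direction of ESM1 was thus shared by these 3 arrays, whereas that of CLDN5, PECAM1 and VWF was not. Over all 13 tumours and 12 glands, without pairing, the difference of means was 4.04 for ESM1, -3.35 for CLDN5, -1.98 for VWF and -1.84 for PECAM1.

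The differences had the same direction with and without skeletal muscle RNA in the gland. In the 5 paired dogs whose gland lacked muscle RNA, the difference was 3.82 ± 1.29 for ESM1, -3.47 ± 1.54 for CLDN5, -2.27 ± 0.89 for VWF and -1.88 ± 0.82 for PECAM1 (SD, n = 5). In the 6 dogs whose gland carried it, the same genes differed by 4.09 ± 2.26, -4.41 ± 1.35, -2.44 ± 1.19 and -2.35 ± 1.20 (SD, n = 6). EMCN differed by -0.04 ± 1.28 without muscle RNA and by -0.96 ± 1.84 with it, a gap smaller than the spread between dogs.

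No call is read for the 10 genes, since this contrast was used to choose them. As a background for the other gene lists, in a limma fit with the dog as a block, at a Benjamini-Hochberg adjusted p under 0.05, 18.4% of the 8885 tested genes were higher in tumours and 11.1% were lower. Further probe sets of the same genes pointed the same way: the second CLDN5 probe set differed by -2.99 ± 1.78, the second TIE1 probe set by -2.03 ± 0.96 and the second EGFL7 probe set by -1.75 ± 0.66 (SD, n = 11). The 4 PECAM1 probe sets ranged from -2.14 to -1.995. Of 21 probe sets 18 passed the filter on low values, and the other 3, all of CDH5, lay near the lower end of the scale and showed differences between -0.58 and -0.01.

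Within the tumours the vessel genes varied together from dog to dog. Over the 13 tumours CLDN5 and TIE1 correlated at a Pearson r of 0.93 (permutation p = 1e-05, the smallest that the 100000 permutations can give, adjusted p = 0.00090) and a Spearman rho of 0.94 (permutation p = 3e-05). PECAM1 correlated with TIE1 at r = 0.89, with CLDN5 at 0.85 and with VWF at 0.84. Of the 36 pairs of vessel genes, 33 had a positive r, with a median of 0.56, and 14 passed an adjusted p of 0.05 over the 90 pair relations tested in both tissues (18 before adjustment, and 13 by Spearman's rho). The tumours of dogs 2, 4 and 9 were high in CLDN5, PECAM1 and TIE1, and those of dogs 7 and 12 were low.

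When the 2 tumours farthest from the median of the first gene were left out, all 36 pairs were positive, with a median r of 0.50, but only 2 passed the adjusted threshold. CLDN5 and TIE1 then correlated at 0.88, and PECAM1 and TIE1 at 0.86. In the 9 tumours whose title carries the suffix b, whose meaning the labels do not give, the median r was 0.67.

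EMCN and TEK had the lowest median r to the other 8 vessel genes in tumours, 0.29 and 0.28, against 0.42 for EGFL7 and 0.57 for PLVAP. EMCN passed the threshold with none of the other 8 vessel genes in tumours, at r from -0.20 with PLVAP to 0.54 with PECAM1. These values leaned on the tumours of dogs 5 and 14, the farthest in EMCN. Without them, and given without a test, r was 0.87 with PECAM1, 0.78 with TIE1, 0.69 with CLDN5 and 0.66 with VWF. With EGFL7 it was then 0.14. PLVAP correlated with CDH5 at r = 0.81 (permutation p = 0.00060, adjusted p = 0.0048), with EGFL7 at r = 0.74 (permutation p = 0.0052, adjusted p = 0.019) and with VWF at r = 0.64 (permutation p = 0.018, adjusted p = 0.044). Without dogs 14 and 4, the farthest in PLVAP, these were 0.78, 0.70 and 0.67. Without dogs 4 and 11, the farthest in CDH5, r with CDH5 was 0.63, and CDH5 was below log2 4 in 9 of 13 tumours. Without dogs 7 and 4, the farthest in VWF, r with VWF was 0.38. TEK, near the lower end in most tumours, passed by r with TIE1 alone, at r = 0.57 (permutation p = 0.022, adjusted p = 0.049), and by rho also with CLDN5, at rho = 0.75 (permutation p = 0.0047, adjusted p = 0.018). Without dogs 9 and 1, the farthest in TEK, its r was 0.74 with CLDN5 and 0.70 with CDH5, but -0.17 with EGFL7 when dogs 12 and 9, the farthest in EGFL7, were left out instead, and 0.17 without dogs 9 and 1. The 11 tumours left without dogs 9 and 1 all had TEK below log2 4, so the order of these values is weak.

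ESM1 followed 1 of the 9 vessel genes in tumours, and that was EMCN. Their r was 0.71 (permutation p = 0.0068, adjusted p = 0.020) and their rho 0.66 (permutation p = 0.017, adjusted p = 0.042). The tumours of dogs 5 and 14 were the highest in both genes, and that of dog 12 was the lowest in ESM1 and the second lowest in EMCN. Without dogs 5 and 12, the farthest in ESM1, r was 0.47 (adjusted p = 0.28), and without dogs 5 and 14, the farthest in EMCN, it was 0.43, so the relation rests on these tumours. Leaving out 1 tumour at a time gave r from 0.57 to 0.77, and the 9 tumours with the suffix b gave 0.70.

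With the other 8 vessel genes ESM1 passed in no case, by r or by rho. Its r was 0.32 with PECAM1, 0.26 with VWF, 0.26 with TIE1, 0.12 with CLDN5 and 0.08 with TEK. It was negative with CDH5 (-0.25), PLVAP (-0.29) and EGFL7 (-0.46, permutation p = 0.11, adjusted p = 0.18). With 13 tumours, relations of this size could not be told from 0.

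**Figure D3:**
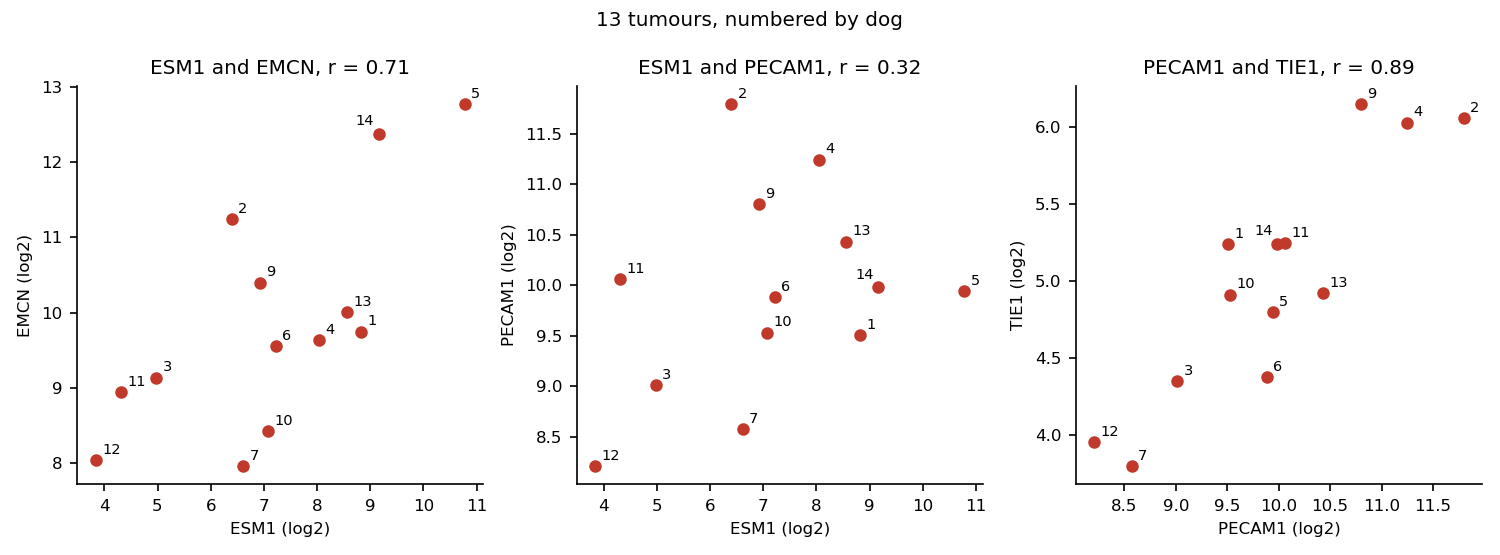
Expression (log2) of 3 pairs of genes in the 13 tumours, each point numbered by dog. EMCN goes with ESM1 (r = 0.71) mainly through dogs 5 and 14 at the top and 12 at the bottom, PECAM1 shows a loose spread against ESM1 (r = 0.32), and TIE1 lies close to a line against PECAM1 (r = 0.89).

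In the glands all 36 pairs of vessel genes had a positive r, with a median of 0.72, and 26 passed the adjusted threshold. VWF and PECAM1 correlated at r = 0.92 (permutation p = 0.00023, adjusted p = 0.0041), PECAM1 and EMCN at 0.88 (permutation p = 0.00016, adjusted p = 0.0036) and CDH5 and EGFL7 at 0.87 (permutation p = 0.00047, adjusted p = 0.0048). EMCN passed with 6 of the other 8 vessel genes in glands. CDH5 and EMCN correlated at r = 0.84 in glands and at -0.00 in tumours, a contrast between tissues that was not tested. The tumour value was 0.39 without dogs 5 and 14, the farthest in EMCN, and CDH5 lay below log2 4 in 9 of 13 tumours.

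The low gland of dog 8 entered these values. Without it all 36 pairs stayed positive with a median r of 0.62, VWF and PECAM1 correlated at 0.81 and CDH5 and EGFL7 at 0.83. Some pairs of CLDN5 leaned on this gland: r fell from 0.69 to 0.20 with VWF, from 0.75 to 0.32 with PECAM1 and from 0.37 to 0.10 with TEK. Its other pairs fell less, from 0.70 to 0.63 with CDH5, from 0.67 to 0.59 with EGFL7 and from 0.76 to 0.60 with EMCN. With PLVAP r went from 0.56 to 0.42 and with TIE1 from 0.45 to 0.32. Without the 2 glands farthest in the first gene, which included dog 8 for CLDN5, VWF, PECAM1, CDH5, PLVAP and EMCN, the median was 0.64 with 35 of 36 positive, and 0 pairs passed the adjusted threshold (18 at an unadjusted p under 0.05). The pairs were all positive among the 6 glands with muscle RNA, with a median r of 0.66, and among the 6 without it, with a median of 0.80. ESM1, near the lower end in glands, passed with none of the 9 genes there, at r from -0.38 to 0.57. Without dog 8, and given without a test, its r ran from -0.33 with CLDN5 to 0.74 with TEK. Without dogs 5 and 4, the farthest in ESM1, that with TEK was 0.08.

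**Figure D4:**
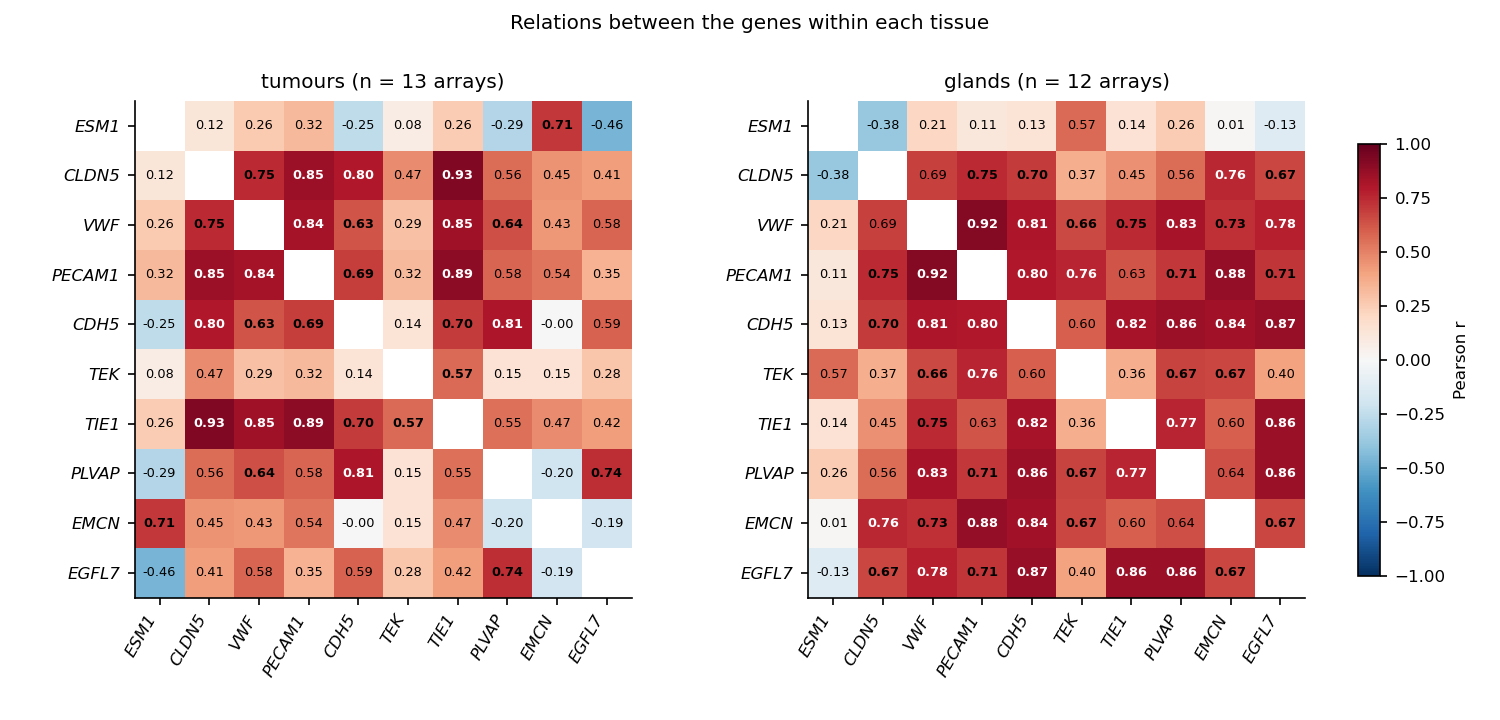
Pearson r between the genes over the 13 tumours (left) and the 12 glands (right), as colour and number. Bold marks an adjusted p under 0.05 over the 90 relations, and in the ESM1 rows of both tissues EMCN in tumours (0.71) is the one bold value.

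Across the 11 paired dogs the ESM1 difference was set against that of each vessel gene, a family of 9 relations added after the data were seen. The same tumours gave the ESM1 relations above, and ESM1 was below log2 4 in 10 of 12 glands. These relations are therefore no separate evidence for those in tumours. The difference of EMCN gave r = 0.77 (permutation p = 0.0053, adjusted p = 0.047) but rho = 0.56 (permutation p = 0.077, adjusted p = 0.52). That of TIE1 gave r = 0.65 (permutation p = 0.028, adjusted p = 0.13). Without dogs 12 and 14, which hold the smallest and largest ESM1 difference, these fell to 0.52 and 0.17, so both rest on these dogs. For the other 7 genes r lay between -0.21 and 0.36, and without dogs 12 and 14 between -0.67 (TEK) and -0.15 (CLDN5).

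The vessel genes were next set against summed markers of other cells within each tissue. Of 80 relations with the mean of adipocyte, mitosis, hypoxia and epithelial genes, 0 passed an adjusted p of 0.05, and those of ESM1 in tumours ran from r = -0.34 (mitosis) to -0.05 (epithelial). Lists added after the data were seen gave more. The mean of 11 pericyte and mural genes, which mark the contractile cells around vessels, correlated in tumours with VWF at r = 0.80 (permutation p = 0.0011, adjusted p = 0.0099), TIE1 at 0.80 and CLDN5 at 0.78. It passed with 4 of 9 vessel genes in tumours and 7 of 9 in glands, where EGFL7 gave r = 0.96 (permutation p = 1e-05, adjusted p = 0.00060). The mural list shares DES with the skeletal muscle list, and gland relations with list means were not split by muscle RNA. It also holds MYH11 and CNN1, which myoepithelial cells of the gland express too, and their part in these relations was not tested. The mean of 13 fibroblast genes passed with 6 of 9 vessel genes in tumours, among them TIE1 at r = 0.83 (permutation p = 0.0004, adjusted p = 0.0073), and with 2 of 9 in glands. Those 2 were EMCN and PECAM1. Without the 2 glands farthest in this mean, their r fell from 0.79 to 0.53 and from 0.71 to 0.45. ESM1 passed with none of these lists, at r = 0.12 with mural and 0.09 with fibroblast genes in tumours. The mean of 12 macrophage genes passed with 0 of 9 vessel genes in tumours and with 2 of 9 in glands, EMCN at r = 0.74 (permutation p = 0.0064, adjusted p = 0.028) and EGFL7 at r = 0.68 (permutation p = 0.017, adjusted p = 0.049). The part of mural cell and fibroblast content in the relations among vessel genes was not tested, and the epithelial list had a median r of -0.12 with the 9 vessel genes in tumours and 0.03 in glands.

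The whole array was then searched for genes that follow each of 3 members, with a limma slope per probe set. On ESM1 over the 13 tumours, 0% of 8816 genes passed in the positive direction and none in the negative (1345 of 21433 probe sets at an unadjusted p under 0.05). The 5 genes with the highest r were TMEM234 (0.86), ZC3H6 (0.84), SLC25A14 (0.84), TBRG1 (0.81) and TAMM41 (0.81). The lowest were DESI2 (-0.85), FCGRT (-0.84), CCDC22 (-0.84), KIF2C (-0.83) and THOC6 (-0.81), all at an adjusted p of 0.78. Of 20 tested tip cell and VEGF-induced genes 0 passed.

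On CDH5 over the tumours, likewise 0% of 8816 genes passed (1473 of 21433 probe sets at an unadjusted p under 0.05). The highest r belonged to DUSP7 (0.94), ITIH5 (0.91), UCP2 (0.87), ANGPTL4 (0.86) and TRIM47 (0.83). The lowest belonged to PEX16 (-0.90), RPL35A (-0.85), MNAT1 (-0.83), RPS14 (-0.82) and ZNHIT1 (-0.79). CDH5 was near the lower end in 9 of these 13 tumours, so the order of its values is weak.

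PECAM1, well above that range in every array, was therefore added after the data were seen. In tumours 0.442% of 8816 genes rose with it, among them 3 of the 8 other vessel and ESM1 genes tested: CLDN5 (slope 1.30 ± 0.23 SE, adjusted p = 0.028), TIE1 (0.68 ± 0.13 SE, adjusted p = 0.036) and VWF (1.02 ± 0.19 SE, adjusted p = 0.038). ECSCR, an endothelial surface protein, followed PECAM1 most closely of all genes, at r = 0.98 and a slope of 1.20 ± 0.11 SE (adjusted p = 0.00047). Further genes of the other lists that passed were MMRN1, RAMP2, COL4A1 and COL4A2 of the vessel basement membrane, LYVE1, KCNJ8, GNG11 and ELK3. ESM1 gave a slope of 0.64 ± 0.51 SE (adjusted p = 0.67). In probe sets, 80 passed in the positive direction, and 11 without dog 12, 20 without dog 2, 21 without dog 7, 43 without dog 10, 45 without dog 3 and 51 without dog 9, and 33 when no filter on low values was used.

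In the glands 2.12% of 8769 genes rose with PECAM1 and 2.08% with CDH5, while 84 and 65 genes fell. Relations were broad there, with 4211 of 21274 probe sets for PECAM1 and 5084 of 21277 for CDH5 at an unadjusted p under 0.05. With PECAM1 the genes that rose held 3 of 8 tested members (VWF, EMCN and CDH5) and 12 of 32 other endothelial surface genes, led by the water channel AQP1 (r = 0.95, adjusted p = 0.0010). They also held 3 of 13 fibroblast and 2 of 12 macrophage genes. With CDH5 the genes that rose held 6 of 8 (EGFL7, PLVAP, EMCN, VWF, PECAM1 and TIE1) and 13 of 32 surface genes, led by the junction protein ESAM (r = 0.93, adjusted p = 0.011), ADGRF5, RASIP1 and ACVRL1. ANGPT2, ADM and LXN of the tip cell list, GNG11, VCAM1 and the fibroblast genes THY1 and PI16 passed as well. The CDH5 count leaned on single glands: of 407 probe sets in the positive direction, 14 passed without dog 2, 17 without dog 12, 47 without dog 14, 98 without dog 8, 148 without dog 11 and 171 without dog 13, and 750 without dog 7 and 712 without dog 10. The PECAM1 count was 447 probe sets and ranged from 167 without dog 2 to 506 without dog 5, with 183 without dog 13, 213 without dog 12, 261 without dog 3 and 439 without dog 8, and was 169 when no filter was used.

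Other genes of the vessel wall, taken from lists by known function, were tested in tumour against gland with the limma fit blocked by dog. Of 44 other endothelial surface and junction genes 30 were tested, and 23 fell and 0 rose (median difference -1.29, against 0.10 over all 8885 genes). The largest falls were MMRN1, a multimeric matrix protein (-3.87 ± 2.67, SD, n = 11, adjusted p = 0.0021), and NOSTRIN, which traffics endothelial nitric oxide synthase (-3.77 ± 0.83, SD, n = 11, lower in 11 of 11 dogs), and the call of NOSTRIN held in every other setting tried. In the 5 dogs without muscle RNA in the gland 6 of the 30 were called, at a median difference of -1.20, and MMRN1 differed by -2.08 (adjusted p = 0.085). With fewer arrays, 108 of all 8885 tested genes were called higher and 150 lower in these dogs. Counts given below for these 5 dogs are to be read beside those numbers, not beside the shares in all 11 dogs.

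Genes of specialised vessels were tested in the same fit. Of 9 tested capillary and fat vessel genes 6 fell and 0 rose (median -1.96), led by RBP7, a retinol-binding protein of fat capillaries (-6.32 ± 1.14, SD, n = 11), and the fatty acid carrier FABP4 (-4.45 ± 2.46, SD, n = 11), which adipocytes also make. Of 9 tested adipocyte genes 6 fell, but 3 without the block for dog, 4 over all 25 arrays, 3 when no filter was used and 1 in the 5 dogs without muscle RNA, and their part in the vessel values was not tested. Among 11 pericyte and mural genes, from a list that shares DES with the skeletal muscle list, 8 fell and 1 rose (median -1.20). Smooth muscle myosin MYH11 (-4.24 ± 1.92) and calponin CNN1 (-3.73 ± 1.15) fell most, both of which myoepithelial cells of the gland also express, and NDUFA4L2 rose (3.58 ± 2.42, SD, n = 11). Of 4 lymphatic genes 2 fell, CCL21 (-3.09 ± 1.98) and LYVE1 (-2.64 ± 1.67, SD, n = 11). In the 5 dogs without muscle RNA the counts of falls were 2, 3 and 0 in these 3 vessel lists, beside 150 of all 8885 genes.

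The endothelial transcription factors followed in part, with 4 of 8 tested genes lower and 1 higher (median -0.70). EPAS1, the hypoxia-inducible factor of endothelium, fell by 1.83 on the log2 scale and the ETS factor ERG by 0.96. HEY1, a Notch target, rose by 1.37 ± 1.71 (SD, n = 11, adjusted p = 0.044), and this call was lost in 12 of 18 other settings, with adjusted p from 0.031 to 0.43. In the 5 dogs without muscle RNA none of the 8 was called.

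The tip cell and VEGF-induced genes form the programme to which ESM1 belongs. Of 30 on the list 20 were tested, and 3 rose and 4 fell, at a median difference of 0.01, beside the 18.4% and 11.1% of all tested genes that rose and fell. The potassium channel subunit KCNE3 rose by 2.77 ± 1.95 (adjusted p = 0.0027), RGCC by 1.29 ± 1.04 and the growth factor VEGFA itself by 1.16 ± 0.99 (SD, n = 11). ANGPT2, the Tie2 ligand released by sprouting endothelium, fell by 1.56 on the log2 scale, as did the basement membrane protein NID1, and the VEGF co-receptor NRP1 by 1.16. DLL4, APLN, APLNR and UNC5B exceeded log2 4 in too few arrays and were not tested. Of the VEGFA receptors, KDR fell by 1.16 and FLT1 had a difference of 0.77 ± 1.29 (adjusted p = 0.12), and the difference between them was not tested. In the 5 dogs without muscle RNA 1 gene of this list was called lower, ANGPT2, and none higher.

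Of the 9 tested activation genes of inflamed endothelium, CCL2 rose (1.66 ± 1.37, SD, n = 11) and the other 8, SELE and VCAM1 among them, were not called. Their mean varied between dogs, with a difference of 0.12 ± 1.24 (SD, n = 11), and was higher in 5 of 11 dogs. This count and those below over 11 dogs are to be read beside all tested genes, of which 18.4% rose and 11.1% fell. The hypoxia genes, which share ADM and VEGFA with the tip cell list, rose in 11 of 16 cases (median 1.18), led by CA9 (4.85 ± 2.68) and EGLN3 (2.60 ± 1.87, SD, n = 11). In the 5 dogs without muscle RNA 3 of the 16 hypoxia genes were called (median 1.23), and CA9 (adjusted p = 0.077), EGLN3 (adjusted p = 0.18) and CCL2 (adjusted p = 0.086) were not. Among markers of other cells, mitosis genes rose in 19 of 19 cases, with PTTG1 and NCAPG first. Skeletal muscle genes fell in 16 of 19 cases, led by MYL1 and MYL2, and of 13 fibroblast genes 5 fell, DPT and MFAP5 most. Of 16 epithelial genes ST14 rose, a call lost in 13 of 19 other settings, and MUC1 fell, and of 12 macrophage and 2 platelet genes 0 were called. The largest falls among adipocyte genes were those of CIDEA and CFD.

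**Figure D5:**
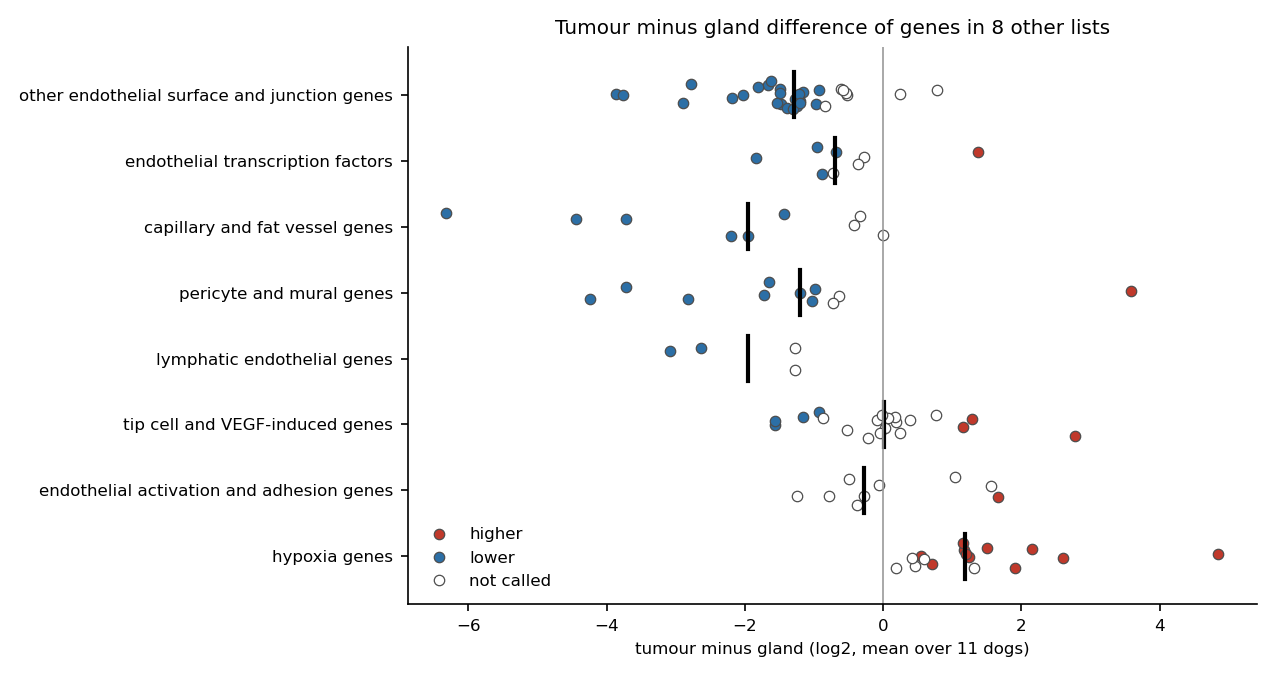
Tumour minus gland difference (log2, mean over 11 dogs) of every tested gene in 8 lists, with the list median as a black bar. Red and blue mark genes called higher and lower at an adjusted p under 0.05. The surface and junction genes lie mostly left of 0 (median -1.29), the tip cell genes on both sides (median 0.01) and the hypoxia genes right of it (median 1.18).

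Within the tumours the genes were set against tumour size, labelled at 0.5 to 5 cm, and against survival after surgery, 1 to 9 months in 12 dogs. For size, 0% of 21434 probe sets passed (2026 at an unadjusted p under 0.05). EMCN gave a slope of 0.65 ± 0.26 SE per cm (adjusted p = 0.48) and ESM1 one of 0.59 ± 0.38 SE per cm (adjusted p = 0.62), and neither passed. Without dog 5 these were 0.40 and 0.16 per cm. For survival, 0% of 21261 probe sets passed (523 at an unadjusted p under 0.05), and the slope of ESM1 was 0.03 ± 0.18 SE per month. TEK was not tested for either trend and CDH5 not for survival, as too few tumours exceeded log2 4. The 2 tumours labelled negative for HER-2 had ESM1 at log2 6.92 and 7.22, inside the range of the 11 positive ones.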

How the data were processed

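Total RNA of each specimen was labelled with biotin and hybridised to 1 array, per the labels' protocols. The authors deposited 1 normalized log2 value per probe set and array. The submitters' processing notes list Partek, GCRMA and RMA, with no version and no role for any of them. Which annotation the authors used is not stated in these sources.

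Symbols were taken from the platform annotation, and probe sets with several symbols (439) or none (13231) were not named. For 19 of the 21 probe sets described, the Entrez ID was present in RefSeq's genes of UU_Cfam_GSD_1.0, and it was absent for both CLDN5 probe sets. The file held 111 control probe sets, which were removed, and 0 columns went unused. Where several tested probe sets named a gene, the one highest on average over the 25 arrays stood for it.

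For tumour against gland, limma 3.58.1 ran in R 4.3.3 (lmFit, then eBayes with a trend) on 22 arrays, blocking on the dog, for the 21553 probe sets that exceeded log2 4 in 6 or more of them. Slopes within a tissue needed 4 or more arrays above log2 4. All tests had 2 sides, with Benjamini-Hochberg adjustment at a threshold of 0.05. Relations used 100000 permutations. Muscle RNA in a gland means a muscle list mean of at least log2 6. The labels pair the tissues by dog, and after removal of tissue means the tissues of 1 dog correlated at 0.119 to 0.456 in 11 of 11 dogs. Nothing in the labels says that arrays of a tissue are repeats of 1 specimen, so each dog counted as 1 replicate.

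The genes, the lists and the tests were chosen with earlier results of these data known. Named genes were the members, in each list the 2 called genes with the largest rise and the 2 with the largest fall, the 5 highest and 5 lowest r to ESM1 and to CDH5 in tumours, and up to 4 genes per list called in the slope fits on ESM1 or CDH5. The genes named in the PECAM1 fits, and VEGFA, NRP1, KDR, FLT1, DLL4, APLN, APLNR, UNC5B, SELE and VCAM1 in tumour against gland, were picked after their values were seen. Alternatives were no block, all 25 arrays, median centring, quantile normalization, other filters, no trend, other probe sets and leaving out each dog. Both fits were tested on simulated data.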

Additional observations from a re-analysis of the deposited data

How the results depend on the processing

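The paired fit gave 1638 genes higher and 990 lower in tumours, and without the block for dog it gave 1374 and 778. Leaving out 1 dog gave 1302 to 1639 higher and 766 to 1044 lower. In the 5 dogs whose gland lacked muscle RNA, with fewer arrays, 108 were higher and 150 lower, and 6 instead of 23 of 30 other endothelial surface genes were lower. Outside this subset, that list gave 20 to 23 lower in every setting tried. MYL2, a muscle gene, reversed to 0.018 in those dogs. The mean differences of the 10 described genes moved by less than 1 SD in every setting, a wide limit. Within it, CDH5 went from -1.68 to -0.57 with the mean over all its probe sets. In the 5 dogs without muscle RNA, EMCN went from -0.54 to -0.04 and PLVAP from -0.34 to -0.02.

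The positive slope counts on CDH5 in tumours were 0, with 3 probe sets when no filter was used and 0 to 1 without single dogs. On CDH5 in glands they were 407, with 65 when no filter was used and 14 to 750 without single dogs. Without the 2 arrays farthest in the first gene, fewer arrays remained, and 2 instead of 14 vessel pairs passed in tumours, 0 instead of 26 in glands and 0 instead of 1 with ESM1 in tumours, where r of ESM1 and EMCN was 0.47.

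Leaving out a dog never brought a size or survival slope past the threshold. Signals near the lower end limit CDH5 and TEK in tumours, ESM1 in glands and, in part, PLVAP in glands.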
